A study of Sus scrofa with 6 samples.

Results

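The 46 genes described here, measured in pig brain, belong to the mitochondrial carrier family or are named for the mitochondrial protein import machinery. They were chosen from the deposited table as genes whose symbol starts with SLC25A, TIMM or TOMM, among 18225 Ensembl pig identifiers, of which 10937 had a symbol. They comprise 30 SLC25A, 8 TIMM and 8 TOMM genes, each on 1 identifier, of 64 such symbols in the table of names used. Others, the ADP/ATP exchanger SLC25A6, the oxoglutarate carrier SLC25A11 and the mitoferrin SLC25A28 among them, were not analysed here. Brain messenger RNA came from 3 Rongchang pigs, a domesticated Chinese breed, and 3 wild boars. All were 210 days old and each gave 1 library. The labels used here name neither the brain region nor the sex or rearing of the animals, and no treatment. Values are FPKM, fragments counted per kilobase of transcript and scaled to library size, so levels can be compared between genes within a library. Between animals, a level is relative to the rest of its library, where mitochondrially encoded messenger RNAs took 30.03% to 46.8% of the FPKM. Comparisons of animals on deposited values therefore hold for that scale only. Means are given ± SD with n = 3 per breed, and a difference is always the wild boar mean of log2(FPKM + 1) less the Rongchang mean. A gene was tested when it reached 1 FPKM in at least 3 of the 6 libraries, which left 42 members of 13152 genes.

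Mitochondria make ATP behind an inner membrane that is closed to charged metabolites. SLC25A carriers move nucleotides, phosphate, amino acids, carboxylates and cofactors across it, mostly by exchange. Nearly all mitochondrial proteins are made in the cytosol. They pass the outer membrane through the TOM complex and are then taken on by the TIM23 complex, which handles proteins with a cleavable presequence, or by small TIM chaperones and the TIM22 complex, which inserts the carriers themselves. In brain these systems serve ATP supply at synapses, glutamate oxidation and the shuttling of reducing equivalents by the aspartate/glutamate carrier.

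Across the series, total FPKM per library ranged from 568921 to 687359, and 16510 to 17090 genes were above 0. Mitochondrially encoded messenger RNAs took 45.2%, 39.9% and 30.03% of it in Rongchang 1 to 3 and 46.8%, 41.0% and 43.6% in wild boar 1 to 3 (exact permutation test, two-sided, p = 0.4, and 0.1 is the smallest p that 3 against 3 animals allow). Markers of brain cells were present in every library. Summed neuron markers (7 of 8 found) stood at 1843 to 2573 FPKM in Rongchang and 1754 to 2444 in wild boar, astrocyte markers (6 of 7) at 1787 to 1970 and 1544 to 1922, and oligodendrocyte markers (4 of 6) at 1595 to 1893 and 1230 to 2027. Microglia markers (5 of 7) summed to 51.2 to 87.6 and 39.7 to 86.7 FPKM, and endothelial markers (3 of 5) to 18.2 to 23.4 and 26.7 to 27.9. The endothelial sums were thus higher in wild boar without overlap, while each of the 3 genes overlapped between the breeds and limma called 0. Erythroid markers (3 of 8), almost all of it the globin HBB, summed to 68.0 to 190.3 and 58.5 to 275 FPKM. In whole tissue, fewer cells of a type and less RNA per cell cannot be told apart.

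The carriers and import genes were more abundant than the typical brain gene. Their median level over the 6 libraries was 13.9 FPKM for the 42 tested members, against 7.09 FPKM for all genes tested. Import genes had a median of 17.7 FPKM and carriers of 12.6. The range was wide, from TOMM34 at 1.79 FPKM to the phosphate carrier SLC25A3 at 270.1, which was above 98.7% of all genes tested. The members kept nearly the same order in both breeds (Spearman rho of the breed means 0.995 over 42 genes, as a description, since genes share their libraries).

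**Figure D1:**
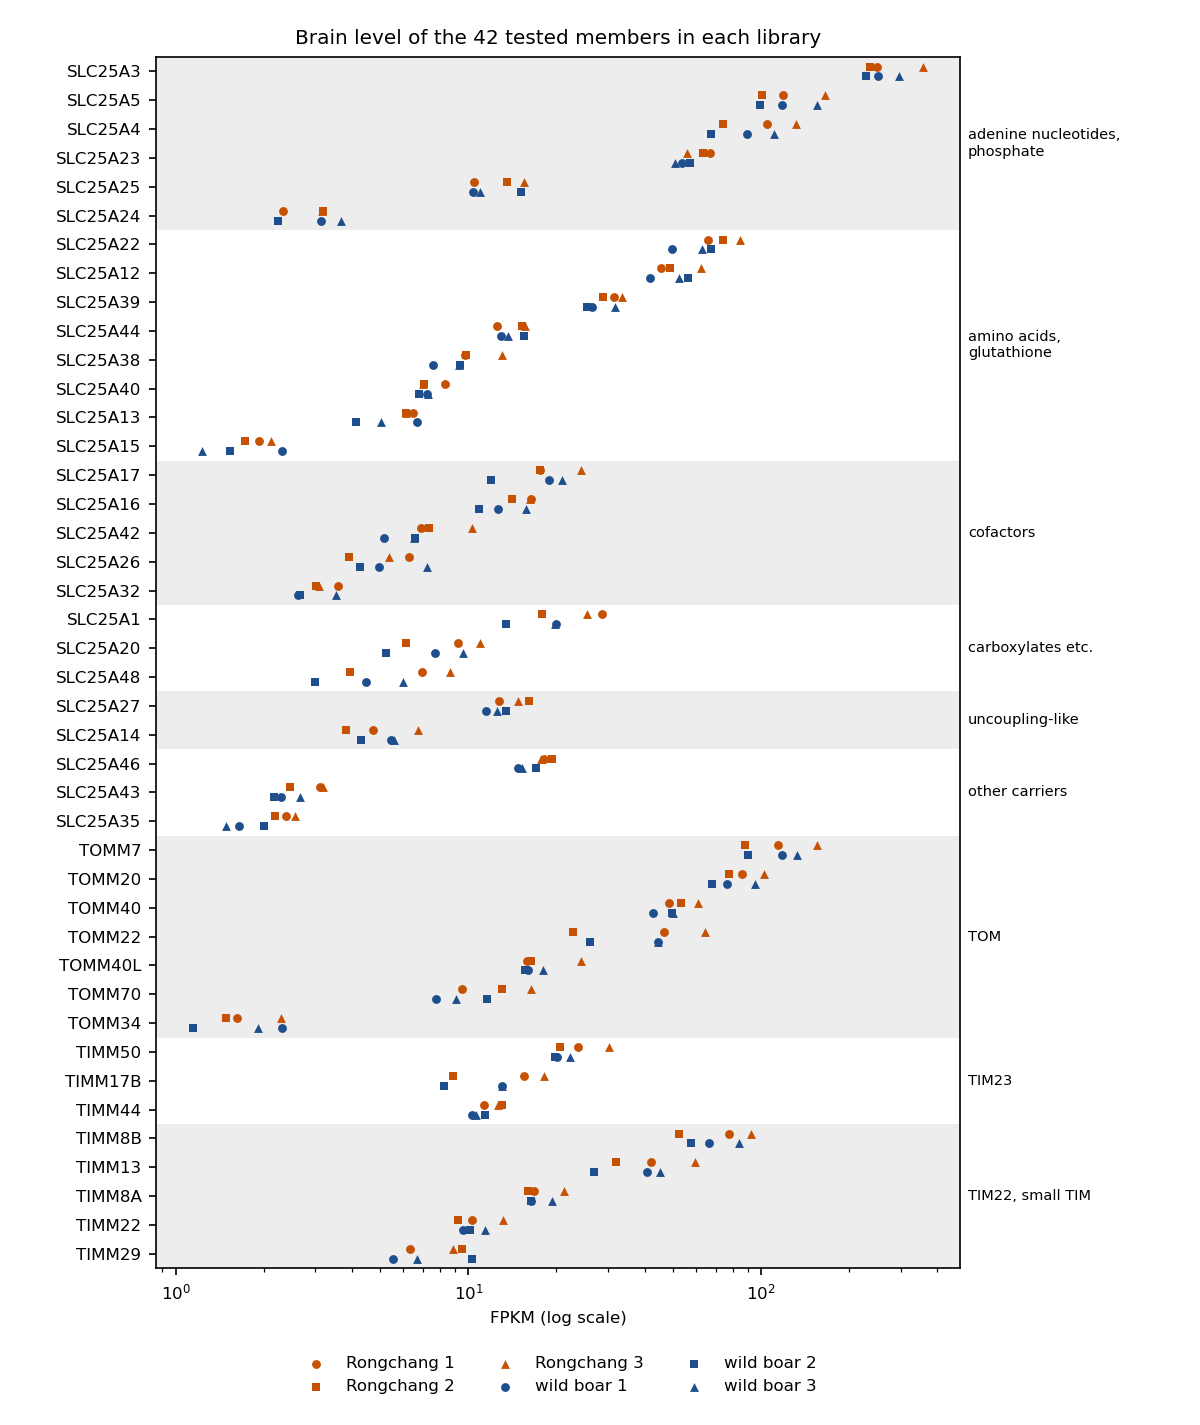
Level of each of the 42 tested members in FPKM on a log axis, 1 point per library, Rongchang in orange and wild boar in blue, with the marker giving the animal number. SLC25A3 leads at 229 to 359 FPKM and TOMM34 is lowest at 1.14 to 2.31.

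Among carriers of adenine nucleotides and phosphate, the genes that feed ATP synthase directly stood highest. SLC25A3, which brings phosphate into the matrix, was at 249.8, 235 and 359 FPKM in Rongchang and 251, 229 and 297 in wild boar. The ADP/ATP exchanger SLC25A5 was at 119, 101 and 166 FPKM in Rongchang and 118, 99.3 and 156 in wild boar, and its close paralog SLC25A4 at 105, 74.4 and 132 FPKM in Rongchang and 89.3, 67.3 and 111 in wild boar. In each of the 3 genes the breeds overlapped, the library numbered 3 was the highest of its breed and the library numbered 2 the lowest. SLC25A5 exceeded SLC25A4 in all 6 libraries, by a ratio of 1.14, 1.36 and 1.26 in Rongchang and 1.33, 1.48 and 1.40 in wild boar. Reads of such similar genes, and of their pseudogenes, may have been assigned to either copy.

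The ATP-Mg/phosphate carriers, which are regulated by calcium, differed widely in level. SLC25A23 was at 66.8, 63.2 and 56.01 FPKM in Rongchang and 53.7, 57.1 and 50.7 in wild boar, SLC25A25 at 10.4, 13.5 and 15.4 FPKM in Rongchang and 10.4, 15.1 and 10.9 in wild boar, and SLC25A24 at 2.32, 3.18 and 3.15 FPKM in Rongchang and 3.14, 2.23 and 3.66 in wild boar. SLC25A23 was thus 17.8 to 28.8 times as abundant as SLC25A24 in Rongchang and 13.8 to 25.6 times in wild boar. SLC25A24 was 1 of 3 tested members with a difference above 0 as deposited (0.038, 95% interval −0.39 to 0.47), against 20 with median scaling, and its breeds overlapped. Its difference was −0.071 without Rongchang 1 and −0.078 without wild boar 3.

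Of the 8 amino acid and glutathione carriers, the glutamate carrier SLC25A22 and the aspartate/glutamate carrier SLC25A12 led. SLC25A22 was at 66.2, 74.2 and 84.99 FPKM in Rongchang and 49.7, 67.6 and 63.01 in wild boar, with a difference of −0.32 (95% interval −0.75 to 0.11, adjusted p = 0.796). Wild boar 2, at 67.6 FPKM, lay above Rongchang 1, so the breeds overlapped. SLC25A12 was at 45.6, 48.9 and 62.2 FPKM in Rongchang and 41.9, 56.2 and 52.6 in wild boar, with the wild boars inside the Rongchang range apart from wild boar 1. Its paralog SLC25A13, best known from liver, was at 6.47, 6.099 and 6.14 FPKM in Rongchang and 6.68, 4.13 and 5.01 in wild boar. SLC25A12 was 7.05 to 10.1 times as abundant as SLC25A13 in Rongchang and 6.27 to 13.6 times in wild boar.

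The glutathione carrier SLC25A39 was at 31.5, 28.8 and 33.5 FPKM in Rongchang and 26.4, 25.4 and 31.6 in wild boar, and its paralog SLC25A40 at 8.297, 7.05 and 6.98 FPKM in Rongchang and 7.24, 6.78 and 7.26 in wild boar. SLC25A40 was the steadiest member of all, with a highest library 1.22 times the lowest. SLC25A38, which brings glycine in for haem synthesis, was at 9.71, 9.84 and 13.1 FPKM in Rongchang and 7.59, 9.37 and 9.31 in wild boar. All its wild boar libraries lay below all its Rongchang libraries, with a difference of −0.28 (95% interval −0.67 to 0.11), although Rongchang 1 and wild boar 2 were only narrowly apart. That difference was −0.12 with median scaling, and 11.4% of all genes tested were lower in wild boar without overlap. The branched-chain amino acid carrier SLC25A44 was at 14.5 ± 1.65 and 13.99 ± 1.29 FPKM and the ornithine carrier SLC25A15 at 1.92 ± 0.2002 and 1.68 ± 0.555, each with overlapping breeds. All 8 carriers of this group had a difference below 0 as deposited, against 4 when each library was scaled to the same median, with a median of −0.15 and a range of −0.32 to −0.042.

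Of the 5 tested carriers of other nucleotides and cofactors, 4 had a difference below 0, where 77.9% of all genes tested did. With median scaling 3 lay below 0, against 46.4% of all genes. SLC25A42, a carrier of coenzyme A, was at 6.904, 7.33 and 10.3 FPKM in Rongchang and 5.16, 6.59 and 6.51 in wild boar. The breeds did not overlap (11.4% of all genes tested were lower in wild boar without overlap), but wild boar 2 and 3 came close to Rongchang 1. The difference was −0.36 (95% interval −0.79 to 0.064, adjusted p = 0.789). It kept its direction in all 19 alternatives, from −0.48 to −0.20, with adjusted p from 0.262 to 1. With median scaling it was −0.21. SLC25A1, SLC25A22, SLC25A38 and TOMM70 also kept their direction in all 19, and SLC25A35 in the 18 that held it. The alternatives reuse the same 6 libraries. SLC25A17, which moves coenzyme A and nucleotides across the peroxisomal rather than the mitochondrial membrane, was the most abundant of the group at 17.6, 17.6 and 24.2 FPKM in Rongchang and 18.8, 11.95 and 20.8 in wild boar. SLC25A16 was at 16.4, 14.1 and 16.2 FPKM in Rongchang and 12.6, 10.9 and 15.7 in wild boar. The breeds overlapped in both. The folate and flavin carrier SLC25A32 had means of 3.23 ± 0.302 and 2.94 ± 0.518 FPKM. The S-adenosylmethionine carrier SLC25A26 was at 6.26, 3.904 and 5.36 FPKM in Rongchang and 4.95, 4.25 and 7.21 in wild boar, with a difference of 0.061 (95% interval −0.45 to 0.57) and overlapping breeds. That difference was −0.096 without Rongchang 2 and −0.12 without wild boar 3.

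The 3 carriers of carboxylates, acylcarnitine and choline had lower means in wild boar. With median scaling the differences were −0.24 for SLC25A1, −0.048 for SLC25A20 and −0.29 for SLC25A48. The citrate carrier SLC25A1, which exports the carbon used for fatty acid and sterol synthesis, was at 28.6, 17.9 and 25.5 FPKM in Rongchang and 19.96, 13.5 and 19.8 in wild boar. Its difference was −0.41 (95% interval −0.93 to 0.12, adjusted p = 0.794), and the breeds overlapped through Rongchang 2. The carnitine/acylcarnitine carrier SLC25A20, needed for fatty acid oxidation, was at 9.24, 6.13 and 11 FPKM in Rongchang and 7.69, 5.24 and 9.58 in wild boar. SLC25A48, linked to choline transport, was at 6.96, 3.93 and 8.63 FPKM in Rongchang and 4.46, 3.002 and 5.98 in wild boar and had the widest spread of the tested members, its highest library being 2.87 times its lowest. In all 3 genes the library numbered 2 was the lowest of its breed in both breeds, as in 22 of the 42 tested members. The highest was the library numbered 1 for SLC25A1 and the library numbered 3 for SLC25A20 and SLC25A48.

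Both uncoupling-protein relatives among the members are known from brain. SLC25A27 (UCP4) was at 12.8, 16.1 and 14.8 FPKM in Rongchang and 11.5, 13.4 and 12.6 in wild boar, and SLC25A14 (UCP5) at 4.71, 3.83 and 6.74 FPKM in Rongchang and 5.45, 4.29 and 5.56 in wild boar. SLC25A14 was the third member above 0 as deposited (0.023, 95% interval −0.44 to 0.49), and lay below 0 when Rongchang 1, Rongchang 2, wild boar 1 or wild boar 3 was left out (−0.13 to −0.010). SLC25A46, an outer-membrane protein of the family that acts in mitochondrial shape, was at 18.1, 19.3 and 17.6 FPKM in Rongchang and 14.8, 16.98 and 15.2 in wild boar, with no overlap between the breeds (−0.22, 95% interval −0.54 to 0.11, adjusted p = 0.824). SLC25A35, whose substrate is not settled, was at 2.38, 2.19 and 2.55 FPKM in Rongchang and 1.65, 2.01 and 1.49 in wild boar, also without overlap (−0.32, 95% interval −0.65 to 0.022, adjusted p = 0.789). With median scaling the differences were −0.053 for SLC25A46 and −0.20 for SLC25A35. Of all genes tested, 11.4% were lower in wild boar without overlap. SLC25A43 was at 3.12, 2.46 and 3.18 FPKM in Rongchang and 2.28, 2.17 and 2.66 in wild boar, and its breeds overlapped. Of the carriers under the test's minimum, SLC25A53 was at 0.511 to 0.800 FPKM and the liver carrier SLC25A47 at 0.442 to 1.22. SLC25A45, also under it, was listed at 0 in 5 libraries and at 0.0573 in Rongchang 3. Among liver markers, ALB was at 3.03 to 4.07 FPKM, APOA1 at 85.0 to 162 and TF at 215 to 362.

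On the import side, the TOM genes were the most abundant group by summed level. TOMM7, a small subunit that shapes the complex, was at 115, 88.3 and 156 FPKM in Rongchang and 118, 90.5 and 133 in wild boar. The presequence receptor TOMM20 was at 86.02, 77.6 and 102 FPKM in Rongchang and 76.5, 67.9 and 95.4 in wild boar, and the pore TOMM40 at 48.3, 53.4 and 60.7 FPKM in Rongchang and 42.8, 49.5 and 50.1 in wild boar. All 3 overlapped between the breeds. The central receptor TOMM22 was at 46.7, 22.7 and 64.6 FPKM in Rongchang and 44.6, 26.1 and 44.5 in wild boar. Both libraries numbered 2 were far below the others, and the highest library was 2.84 times the lowest. The ratio of TOMM22 to TOMM40 was accordingly 0.426 in Rongchang 2 and 0.526 in wild boar 2, against 0.889 to 1.06 in the other 4 libraries.

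TOMM70, the receptor for carriers and other hydrophobic precursors, showed the largest difference among import genes. It was at 9.48, 13.04 and 16.3 FPKM in Rongchang and 7.72, 11.5 and 9.04 in wild boar, a difference of −0.41 (95% interval −0.92 to 0.11, adjusted p = 0.794), with wild boar 2 above Rongchang 1. TOMM40L, a paralog of the pore gene, was at 15.9, 16.4 and 24.2 FPKM in Rongchang and 15.98, 15.6 and 18.04 in wild boar. TOMM40 exceeded it 2.51 to 3.25 times in Rongchang and 2.68 to 3.17 times in wild boar. The cytosolic co-chaperone TOMM34 was at 1.79 ± 0.429 and 1.79 ± 0.596 FPKM. TOMM20L was listed at 0 in all 3 Rongchang libraries and wild boar 2, and at 0.142 and 1.17 FPKM in wild boar 1 and 3, and was not tested.

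The TIM23 genes found were TIMM50, the receptor subunit, at 23.7, 20.5 and 30.2 FPKM in Rongchang and 20.1, 19.7 and 22.3 in wild boar, the channel subunit TIMM17B at 15.5, 8.83 and 18.1 FPKM in Rongchang and 13, 8.28 and 12.99 in wild boar, and TIMM44, which docks the import motor, at 11.3, 13 and 12.6 FPKM in Rongchang and 10.3, 11.4 and 10.6 in wild boar. TIMM44 varied little, while TIMM17B was low in both libraries numbered 2. Of the small chaperones that escort precursors between the membranes, TIMM8B was at 77.7, 52.6 and 92.8 FPKM in Rongchang and 66.4, 57.7 and 84.2 in wild boar, its paralog TIMM8A at 16.8, 15.9 and 21.3 FPKM in Rongchang and 16.4, 16.4 and 19.3 in wild boar, and TIMM13, the partner of TIMM8A, at 42.2, 31.99 and 59.5 FPKM in Rongchang and 40.8, 26.9 and 45.2 in wild boar. TIMM8B exceeded TIMM8A 3.3 to 4.62 times in Rongchang and 3.51 to 4.37 times in wild boar. The carrier insertase TIMM22 was at 10.9 ± 1.99 and 10.4 ± 0.909 FPKM and its subunit TIMM29 at 8.204 ± 1.68 and 7.49 ± 2.48. None of the 8 TIMM genes separated the breeds.

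No member passed the test between the breeds (0 of 42 in limma, adjusted p from 0.789 to 0.987), where 1 of 13152 genes did (0.00760%). At an unadjusted p under 0.05, 0 members were lower in wild boar (against 5.42% of all genes tested) and 0 were higher (against 0.578%). With the animal number as a block, 5 members were lower at that mark (SLC25A1, SLC25A22, SLC25A42, SLC25A48 and TOMM70), which is 11.9% of 42 against 16.0% of all genes, and their adjusted p was at least 0.228. Without overlap between the breeds, 4 members were lower (9.52% against 11.4% of all genes) and 0 higher (against 1.12%). The 4 were the carriers SLC25A35, SLC25A38, SLC25A42 and SLC25A46 (14.8% of 27 carriers), and among the 15 import genes tested there were 0. With 3 animals per breed, the 95% intervals of the members reached 0.32 to 0.87 log2 units to either side in the comparison without the block.

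**Figure D2:**
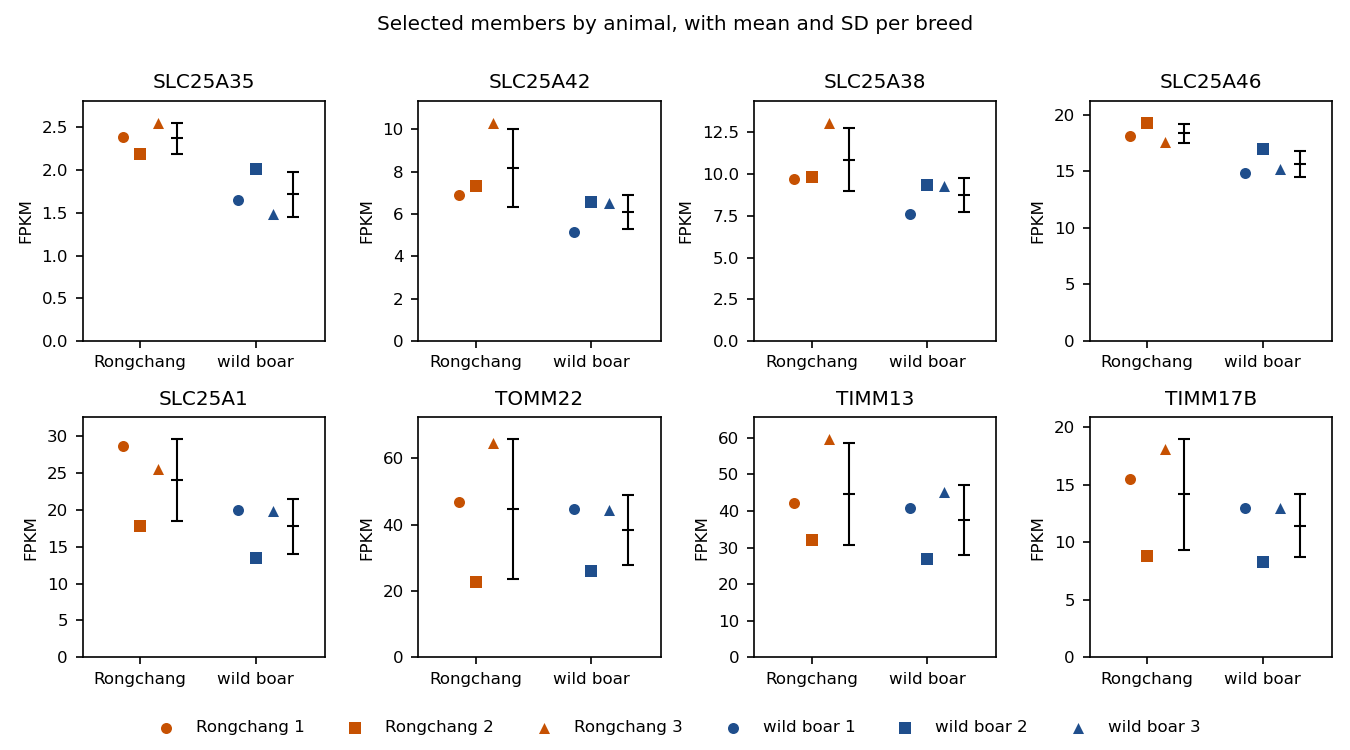
FPKM of 8 members by animal, with points for the libraries and a bar for the mean ± SD of each breed, all axes starting at 0. The 4 members without overlap come first, followed by SLC25A1, TOMM22, TIMM13 and TIMM17B, where both libraries numbered 2 are the lowest of their breed.

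The members leaned below 0 with the rest of the transcriptome. Of the 42, 39 had a difference below 0 (92.9%), against 77.9% of all genes tested. Their median was −0.17, and −0.20 for carriers and −0.15 for import genes, against −0.13 for all genes. When each library was scaled to the same median, 22 members lay below 0 (52.4%, against 46.4% of all genes), with a median of −0.016 against 0.015. Import genes, all 15 of which lay below 0 as deposited, then had 6 below. With each library left out in turn, the median as deposited stayed below 0. The number of members below 0 was 27 without Rongchang 3 (median −0.075) and 32 without wild boar 2 (−0.11), but 41 without Rongchang 2 (−0.23) and 42 without wild boar 3 (−0.22).

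**Figure D3:**
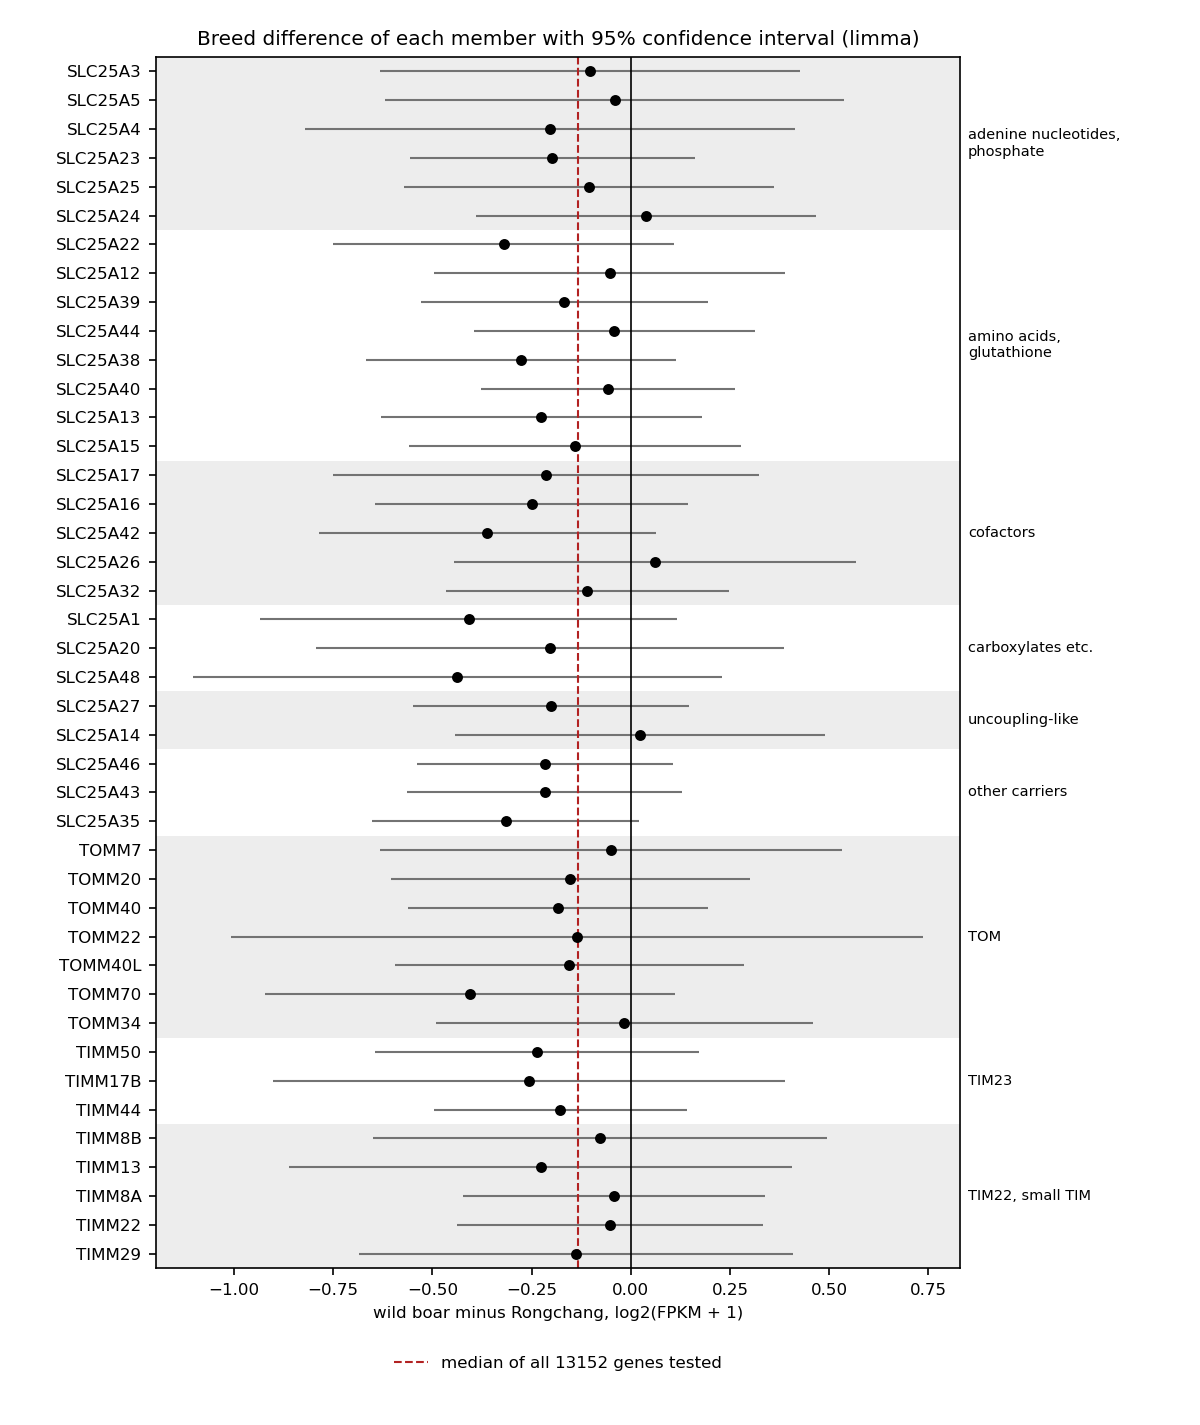
Difference of each tested member, wild boar minus Rongchang in log2(FPKM + 1), with its 95% confidence interval from limma, and the median of all genes tested as a dashed line at −0.13. All 42 intervals include 0.

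Summed over the 30 carriers described, the level came to 874, 801 and 1107 FPKM in Rongchang 1 to 3 and 794, 754 and 941 in wild boar 1 to 3. The import genes came to 527, 435 and 683 and to 491, 423 and 565. In both sums the library numbered 3 was the highest of its breed and the library numbered 2 the lowest, and the breeds overlapped. Scaled to 1000000 of the FPKM that is not mitochondrially encoded, the carriers stood at 2644, 2344 and 2761 in Rongchang and 2171, 2208 and 2752 in wild boar. On that scale wild boar 1 was the lowest. The import genes stood at 1592, 1272 and 1703 in Rongchang and 1342, 1238 and 1653 in wild boar, and there the libraries numbered 2 remained the lowest of each breed. Rongchang 3, with the highest sums as deposited, also had the lowest mitochondrially encoded share.

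The same animals of each breed were therefore high or low in many members at once. The library numbered 2 was the lowest in both breeds for 22 of the 42 (52.4%), against 21.4% of all genes tested, and the library numbered 3 was the highest in both for 18 (42.9% against 19.4%). Both held for 15 members (35.7% against 10.5%). They were SLC25A3, SLC25A4, SLC25A5, SLC25A14, SLC25A17, SLC25A20, SLC25A39, SLC25A43, SLC25A48, TIMM8A, TIMM8B, TIMM13, TIMM50, TOMM7 and TOMM20. After median scaling, 23 members had the library numbered 2 lowest in both breeds (54.8% against 25.7%). The labels do not say what an animal's number marks. Members that move together in this way are not independent of each other.

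For 11 of the 42 the library numbered 1 was the lowest in both breeds (26.2%, near the 22.4% of all genes tested). These were SLC25A12, SLC25A22, SLC25A25, SLC25A27, SLC25A38, SLC25A42, SLC25A44, TIMM29, TIMM44, TOMM40 and TOMM70. Of the TOM subunits, TOMM7, TOMM20 and TOMM22 were lowest in the libraries numbered 2, and TOMM40 and TOMM70 in those numbered 1. TIMM29 stood at 6.3, 9.47 and 8.84 FPKM in Rongchang and 5.52, 10.3 and 6.67 in wild boar, while TIMM13 had its lowest values where TIMM29 had its highest.

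Some cell type markers also varied between these libraries. Of 7 neuron markers tested, 5 were lowest in the libraries numbered 1 of both breeds, against 22.4% of all genes tested. Neuron markers summed to 1843 FPKM in Rongchang 1 and 1754 in wild boar 1, against at least 2303 in the other 4. Of 5 microglia markers 4, of 4 oligodendrocyte markers 3 and of 6 astrocyte markers 3 were lowest in the libraries numbered 2. So were both erythroid and 2 of 3 liver markers tested, but 0 of 7 neuron and 0 of 3 endothelial markers. Over all genes tested, the library numbered 2 was the lowest in both breeds for 21.4%. The muscle genes ACTA1 and MYL1 summed to 55.0 and 56.1 FPKM in the libraries numbered 2, against 5.06 to 22.5 in the others. The choroid plexus gene TTR was at 34.2 FPKM in wild boar 3 and at 0.12 to 3.01 in the others. Other choroid plexus genes did not follow it. KCNJ13 was at 0.597 FPKM in wild boar 3 and 0.873 in wild boar 2, and CLIC6 at 0.0453 and 0.325. The part of these markers in the members' values was not tested.

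**Figure D4:**
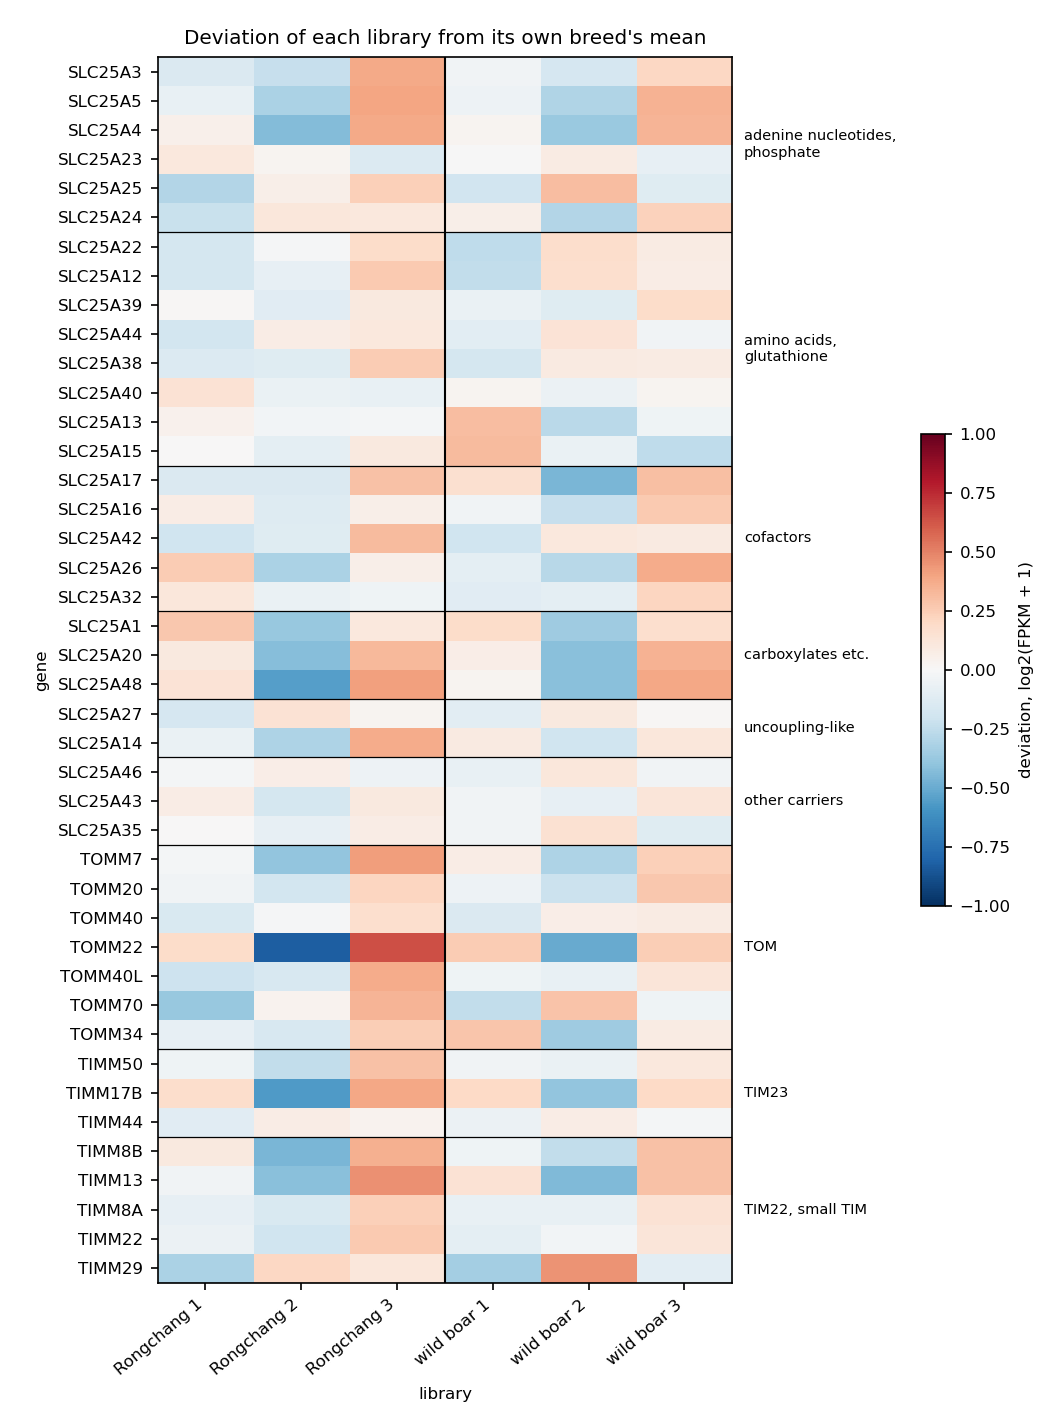
Deviation of each library from the mean of its own breed in log2(FPKM + 1), with tested members in rows by role and libraries in columns, blue for lower and red for higher. TOMM22, SLC25A48 and TIMM17B are bluest in Rongchang 2, while TIMM29 and TOMM70 are blue in the libraries numbered 1.

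Other genes of the same organelle, from lists written with earlier results of these data known, were set beside the members. Of 16 tested import partners that lack the prefix, 13 had a difference below 0 and 3 above, with a median of −0.10. With median scaling 7 lay below 0. Over all genes tested, 77.9% lay below 0 (46.4% with median scaling), with a median of −0.13. For the partners limma called 0 (against 0.00760% of all genes). At an unadjusted p under 0.05 in limma, 1 was higher (against 0.578% of all genes) and 0 lower (against 5.42%). The higher 1 was MIPEP, the peptidase that trims some imported precursors in the matrix. It was at 4.16, 4.09 and 2.92 FPKM in Rongchang and 5.06, 5.69 and 6.21 in wild boar, with no overlap between the breeds (0.50, adjusted p = 0.789). Of all genes tested, 1.12% were higher in wild boar without overlap and 11.4% lower. GRPEL2, a nucleotide exchange factor of the import motor, was at 6.74, 6.44 and 9.83 FPKM in Rongchang and 5.49, 5.39 and 5.47 in wild boar, all wild boars being below all Rongchang pigs. SAMM50, which inserts barrel proteins into the outer membrane, was at 13.2, 15.8 and 18.5 FPKM in Rongchang and 12.3, 11.5 and 13.6 in wild boar. For 11 of the 16 partners the library numbered 2 was the lowest in both breeds, against 21.4% of all genes tested, and for 1 the library numbered 1.

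Of 18 other mitochondrial membrane transporters tested, 17 lay below 0 (against 77.9% of all genes tested), with a median of −0.20 (against −0.13). The 1 above 0 was UCP2, with a difference of 0.34 (limma, adjusted p = 0.848). With median scaling 13 lay below 0 (against 46.4%). For these transporters limma called 0 (against 0.00760%). Without adjustment it also gave 0 at p under 0.05 (against 5.42% of all genes lower and 0.578% higher). MCU, the pore of the calcium uniporter, was at 7.18, 7.05 and 7.09 FPKM in Rongchang and 5.39, 5.73 and 5.85 in wild boar, and its regulator MICU2 at 19.6, 20.03 and 19.98 FPKM in Rongchang and 16.3, 14.5 and 17.3 in wild boar. Both were without overlap and even within Rongchang, with differences of −0.28 and −0.30 (adjusted p = 0.789 for both). Both were picked for their small p, and 11.4% of all genes tested were lower in wild boar without overlap. The sideroflexin SFXN3, of a family of amino acid transporters, was at 7.17, 10.1 and 5.54 FPKM in Rongchang and 5.75, 5.86 and 3.61 in wild boar. For 5 of the 18 transporters the library numbered 2 was the lowest in both breeds, and for 4 the library numbered 1. The 13 mitochondrially encoded genes all lay above 0, also with median scaling, with a median of 0.33, and limma called 0 (without adjustment, also 0 at p under 0.05). Of these, the 3 with the smallest p were ND2, CYTB and ND1. ND1, a complex I subunit, was at 7715, 6409 and 5225 FPKM in Rongchang and 9734, 7696 and 7103 in wild boar, a difference of 0.35, and its breeds overlapped. ND2, another complex I subunit, was at 6539, 5230.0 and 3414 FPKM in Rongchang and 7743, 5950.4 and 5864 in wild boar (0.40), and CYTB, a complex III subunit, at 10232, 7785 and 6684 FPKM in Rongchang and 12136, 8882 and 10707 in wild boar (0.37), both with overlapping breeds.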

How the data were processed

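Brain polyadenylated RNA was sequenced as 100-bp paired-end reads from strand-marked (dUTP) libraries, per the labels' protocols. TopHat2 2.0.11, Cufflinks 2.2.1 and Cuffdiff are named, per the submitters' processing notes, without roles. Build, annotation and strand setting were not given in the sources used here. The authors deposited 1 FPKM value per gene and library. The header names no unit, which was judged from the tools and the values. Low values showed no shared step that would give read counts (at most 23.7% of ratios under 0.15 FPKM fell in 1 window of 0.04 log2 units), so depth is unknown. That highest share was for Rongchang 1 with wild boar 1, followed by Rongchang 3 with wild boar 3 (17.8%). Rongchang 2 with wild boar 2 gave 5.34%, and pairs of unlike number 3.39% to 10.4%. The cause was not tested.

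A table of Ensembl identifiers and names gave the symbols. Breeds follow the sample titles and were compared by limma 3.58.1 (R 4.3.3), fitted to log2(FPKM + 1) with a variance trend, as a two-sided test with Benjamini-Hochberg adjustment over all 13152 genes tested (threshold 0.05). The procedure was tested on simulated data with known changes. These had no shift over all genes and no link between libraries sharing a number, so they do not show how the fit handles either. The labels do not say that the animals were unrelated, so a p-value reflects only how much these libraries vary. For libraries sharing a number, departures from the breed mean correlated at 0.28 (number 1), 0.59 (2) and 0.37 (3), each above 0.1, so the number was taken to pair them, from the data alone, and Rongchang 1 with wild boar 3 also reached 0.12. The comparison without a block was the primary one, because the labels do not say what the number marks.

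The members and lists were chosen with earlier results of these data known. One gene that meets the rule is not reported here and stays out of all counts of members, though not of the comparison over all genes. Values by library were given for the 3 most abundant members of each role group, the 6 with the smallest p in each direction (3 lay above 0) and paralog sets, and the 3 genes with the smallest p of each other list. Members without overlap, TIMM29 and the choroid plexus, muscle and liver marker genes were added after their values were seen. There were 19 alternatives.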

Additional observations from a re-analysis of the deposited data

How the results depend on the processing

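No member passed the adjusted threshold in limma under any of the 19 alternatives (other pseudocounts, filters, scalings, library weights, the replicate block, and libraries left out). The count over all genes, 1, became 3 with a pseudocount of 0.1, 3 without the mitochondrially encoded genes, 3 without both libraries numbered 2 and 0 with a mean of at least 5 FPKM (376 lower and 29 higher at an unadjusted p under 0.05), and ranged from 1 to 4 with 1 library left out.

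Members lower at an unadjusted p under 0.05, 0 in the primary comparison, numbered 5 with the replicate block, 2 with the block and median scaling, 1 with library weights and 3 without both libraries numbered 2. They ranged from 0 to 3 with 1 library left out, with 1 without Rongchang 1, 3 without Rongchang 2 and 2 without wild boar 2. The block changed no adjusted call.

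The members' median difference became −0.016 with median scaling, with or without the block. With 1 library left out, SLC25A14 ranged from −0.13 to 0.21, SLC25A24 from −0.078 to 0.19 and SLC25A26 from −0.12 to 0.20, and SLC25A14 was at −0.031 without both libraries numbered 2. The cause was not tested. Of 329 values recomputed, 301 kept their direction and side of the threshold, or moved by less than the spread. Summing the identifiers of a symbol changed nothing, since each symbol had 1. Read depth being unknown, the precision of low members such as TOMM34 and SLC25A15 cannot be given.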
